A study of Rattus norvegicus with 8 samples.

Results

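Adenylyl cyclases and cAMP-dependent protein kinase (PKA) are represented here by 9 RefSeq records, taken by their identifiers from the 18314 records quantified in each library. Of these, 6 encode membrane adenylyl cyclases, namely Adcy2 (NM_031007), Adcy3 (NM_130779), Adcy4 (NM_019285), Adcy5 (NM_022600), Adcy6 (NM_012821) and Adcy8 (NM_017142). The other 3 encode the PKA regulatory subunits Prkar1a (NM_013181) and Prkar2a (NM_019264) and the catalytic subunit Prkaca (NM_001100922). The records were chosen by name and not by a measured value, but with earlier results of these data known. All 9 were found among the quantified records. The RNA was that of right stellate ganglia, the sympathetic ganglia that supply the heart, from 4 rats of the Wistar stock and 4 of the spontaneously hypertensive strain (SHR), all 16 weeks old, with 1 library per rat. The methods describe the rats as male. The SHR is an inbred strain that develops high blood pressure, whereas Wistar is an outbred stock and not the progenitor strain of the SHR, so strain background and hypertension cannot be told apart. The labels name no treatment or engineered allele for either group. The ganglia were cleaned and freed of their sheath before RNA was extracted, and the cells were not sorted, so the RNA can mix sympathetic neurons with glia, vessels and remaining connective tissue.

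Adenylyl cyclases make cyclic AMP from ATP and are switched on by stimulatory and off by inhibitory G proteins, and each isoform responds in its own way to calcium, to G protein beta-gamma subunits and to kinases. Cyclic AMP binds the regulatory subunits of PKA, which then release the catalytic subunits. In sympathetic neurons PKA phosphorylates ion channels, tyrosine hydroxylase, components of the release machinery and the transcription factor CREB, and this pathway is known for shaping excitability and noradrenaline release.

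The libraries held 25820299 to 35509074 estimated counts, and 13659 records passed a filter on low counts. Counts were compared between strains with edgeR's quasi-likelihood test, with p-values adjusted by Benjamini-Hochberg over all 13659 records and a threshold of 0.05. A normalised count is an estimated count scaled for library size and composition. It is compared only within a record, except to find records with counts near that of Prkar1a. TPM is the share of a library's transcripts that a record takes, also scaled by transcript length and is used to compare levels between records. Sympathetic neuron markers summed to between 28268 and 34167 TPM in Wistar and between 29602 and 34502 TPM in SHR, and 2 records of Ddc, an enzyme of dopamine synthesis, were the ones of that list that passed the test, both lower in SHR. Summed satellite glia markers spanned 971 to 1693 TPM in Wistar and 895 to 1205 in SHR, with 1 Apoe record higher in SHR, and summed myelinating Schwann cell markers spanned 2036 to 2463 and 1801 to 2342 TPM. No Schwann cell record passed edgeR's test, but 4 of 14 had an unadjusted p under 0.05, and the median log2 fold change of the list was -0.33. Counts at an unadjusted p, here and below, are descriptions only, because the share of all tested records at that p is not given. The summed markers of endothelium, vascular smooth muscle, fibroblasts, macrophages, lymphocytes, adipocytes, striated muscle and red blood cells also overlapped between strains, and none of their records passed edgeR's test. At an unadjusted p under 0.05 these 8 lists held 3 of 42 tested records, and DESeq2 called 1 and limma 0. Adipocyte markers set both replicates 1 apart, with 94.6 TPM in Wistar replicate 1 and 151 TPM in SHR replicate 1 against 8.11 to 26.4 TPM in the other 6 rats. With both left out, 1068 records passed edgeR's test in place of 389, and Prkar1a remained the 1 called of the 9 records. The part of cell composition in the results that follow was not tested.

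All 9 cyclase and PKA records passed the filter on low counts, and 1 of them, Prkar1a, was past the threshold between strains, against 2.85% of all tested records. Prkar1a was also the 1 record of the 9 whose normalised counts did not overlap between strains, where 10.6% of all tested records did not overlap and 5.96% of all did so with SHR lower. DESeq2 also called Prkar1a and none of the other 8 records, where it called 5.23% of all tested records without a transcript length offset and 6.27% with it. Limma on log2 TPM called none of the 9, with an adjusted p for Prkar1a of 0.077 to 0.079. The estimate was higher in SHR for 5 records and lower for 4. Their median log2 fold change was 0.19 and that of all tested records was 0.01, while the median absolute change was 0.23 for the 9 records and 0.21 for all. The median standard error of the 9 log2 fold changes was 0.20. Most of the family was therefore measured with an error close to the size of its estimates.

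**Figure D1:**
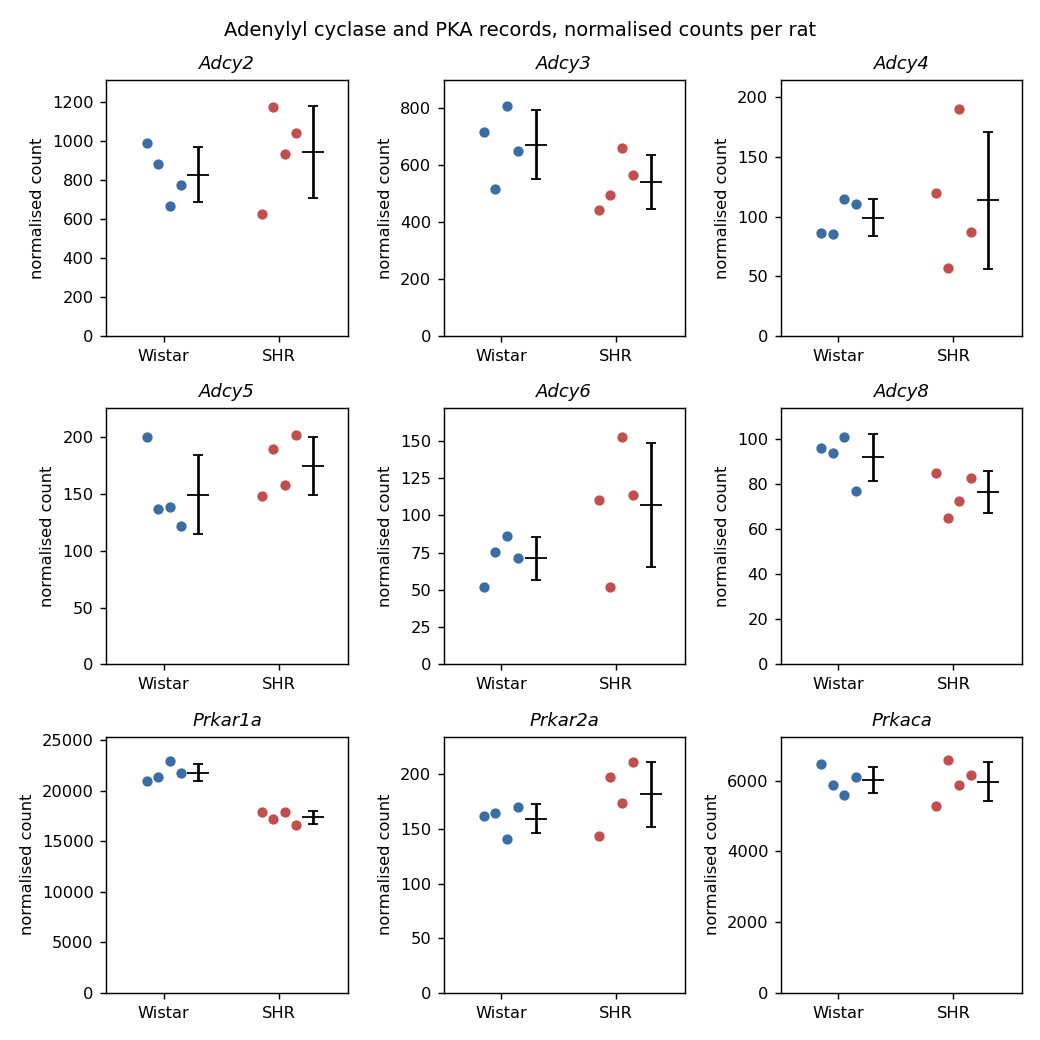
Normalised counts (vertical axes, from 0) of the 9 records in each of 4 Wistar and 4 SHR rats. Points are rats and the black marks show the mean and SD of each strain; the points of Prkar1a are separated by strain, from 16572 to 17870 in SHR and from 20991 to 22915 in Wistar, and those of the other 8 records overlap.

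Prkar1a encodes the type I alpha regulatory subunit, which holds the catalytic subunits inactive until cyclic AMP binds. In Wistar replicates 1 to 4 its normalised counts were 20991, 21375, 22915 and 21792. In SHR replicates 1 to 4 they were 17865, 17163, 17870 and 16572. Every SHR value lay below every Wistar value, and the lowest Wistar rat exceeded the highest SHR rat by more than either strain's SD. Wistar averaged 21768 ± 832 (SD, n = 4) and SHR 17368 ± 626 (SD, n = 4), a log2 fold change of -0.33 with a standard error of 0.073, which is a level 20.2% lower in SHR. It passed edgeR's quasi-likelihood test with a Benjamini-Hochberg adjusted p of 0.046, where 1.69% of all tested records were lower in SHR by the same test. An exact two-sided permutation test of the normalised counts gave p = 0.0286, the smallest that 4 rats against 4 allow. In bulk RNA of a ganglion, fewer cells that express a gene and less of its RNA per cell cannot be told apart.

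The call for Prkar1a lay close to the threshold. With any 1 of the 8 rats left out, the log2 fold change stayed between -0.35 and -0.29 but the adjusted p rose to between 0.057 and 0.171, and with the replicate number as a block the adjusted p was 0.280. It was also above the threshold with other scalings in edgeR, at 0.056 with RLE size factors, 0.0897 with upper quartiles and 0.0748 with library totals, and without both replicates 1 it was 0.0322 at a log2 fold change of -0.36. The median log2 fold change of the myelinating Schwann cell markers was of the same size and sign as that of Prkar1a, while their summed TPM overlapped between strains. Medians of the other marker lists ran from -0.81 for lymphocytes to 0.69 for adipocytes, with -0.44 for fibroblasts and 0.14 for satellite glia. The part of any of these cells in the result was not tested. Counting error was a small part of the spread, since Prkar1a varied by 3.82% between Wistar rats and 3.60% between SHR, where counting alone gives 0.668% and 0.770%. Of the 421 tested records with a mean normalised count within 2-fold of that of Prkar1a, 14 (3.33%) passed the test, 8 of them lower in SHR. On the TPM scale the separation was much narrower than on the normalised counts. TPM of Prkar1a was 572, 638, 688 and 630 in Wistar and 495, 461, 572 and 469 in SHR, and the lowest Wistar value and the highest SHR value differed only in the fourth digit, at 571.7 and 571.6.

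Prkaca encodes the alpha catalytic subunit, the enzyme that phosphorylates PKA substrates. Its normalised counts were 6475, 5871, 5601 and 6097 in Wistar and 5273, 6574, 5873 and 6156 in SHR. The SHR rats held both the lowest and the highest value, and the Wistar rats lay between them. Their log2 fold change was -0.01 with a standard error of 0.092 (edgeR's quasi-likelihood test, Benjamini-Hochberg adjusted p = 0.971). The interval of 2 standard errors ran from -0.19 to 0.17, which is the range of change these 8 libraries leave for Prkaca. The sign of so small an estimate was not fixed by the data, and it turned positive under 7 of the 23 alternative analyses.

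Prkar2a encodes the type II alpha regulatory subunit, the form bound most tightly by A-kinase anchoring proteins. The counts were 162, 165, 140 and 170 in Wistar and 144, 197, 174 and 211 in SHR. Although the 3 highest values were all from SHR rats, SHR replicate 1 was among the lowest, and the strains overlapped. Its log2 fold change of 0.19 with a standard error of 0.17 did not pass edgeR's quasi-likelihood test (Benjamini-Hochberg adjusted p = 0.621).

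The regions before the start sites of PKA genes are shown for the subunit that passed the test among the 9 records (Prkar1a), the catalytic subunit that did not (Prkaca) and the second catalytic subunit (Prkacb). The same region of Adcy2 is shown as the cyclase with the highest level among those measured. They are the 250 bases upstream of each RefSeq start in the rat assembly GRCr8, written 5′ to 3′ on the strand of the gene. Capitals mark a cAMP response element half-site, TGACG or its reverse complement, and a GC box, GGGCGG or its reverse complement.
Prkar1a, chr10:95120287-95120536, plus strand: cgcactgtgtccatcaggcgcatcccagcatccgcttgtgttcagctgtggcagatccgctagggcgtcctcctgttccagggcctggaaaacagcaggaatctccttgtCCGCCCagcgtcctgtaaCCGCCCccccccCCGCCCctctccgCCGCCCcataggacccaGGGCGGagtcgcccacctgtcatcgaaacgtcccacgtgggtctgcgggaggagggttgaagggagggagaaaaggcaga
Prkaca, chr19:41083190-41083439, minus strand: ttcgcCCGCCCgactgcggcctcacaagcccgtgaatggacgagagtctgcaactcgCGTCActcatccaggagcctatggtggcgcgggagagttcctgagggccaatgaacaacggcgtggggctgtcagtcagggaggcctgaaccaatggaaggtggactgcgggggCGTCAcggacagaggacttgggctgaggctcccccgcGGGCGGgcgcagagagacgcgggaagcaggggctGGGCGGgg
Prkacb, chr2:238386316-238386565, minus strand: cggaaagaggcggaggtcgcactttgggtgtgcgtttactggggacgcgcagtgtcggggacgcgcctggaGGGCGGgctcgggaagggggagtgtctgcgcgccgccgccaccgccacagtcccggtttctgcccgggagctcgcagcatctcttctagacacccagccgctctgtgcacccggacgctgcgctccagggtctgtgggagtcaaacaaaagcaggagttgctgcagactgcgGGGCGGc
Adcy2, chr1:36203804-36204053, plus strand: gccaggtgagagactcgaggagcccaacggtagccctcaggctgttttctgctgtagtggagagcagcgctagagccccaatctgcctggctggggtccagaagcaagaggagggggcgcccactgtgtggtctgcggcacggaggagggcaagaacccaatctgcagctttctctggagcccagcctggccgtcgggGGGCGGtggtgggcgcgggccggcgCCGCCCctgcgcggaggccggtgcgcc
Such a window was found for 5 of the 9 genes (Adcy2, Adcy4, Adcy5, Prkar1a and Prkaca). Both strands were searched for the full cAMP response element TGACGTCA, its half-site TGACG, which every full element contains, and the GC box GGGCGG. None of the 5 windows held the full element, which 1.59% of all 33469 windows of this length held. The half-site, in 18.2% of all windows, was found in 1 of the 5, that of Prkaca, at 193 and 79 bases before the start. A GC box, in 30.5% of all windows, was found in 4 of the 5. Prkar1a carried GC boxes at 140, 122, 110, 97 and 80 bases before the start, Prkaca at 245, 42 and 8, Adcy2 at 52 and 27, and Prkacb at 179 and 7. These are matches of letters in these windows and no binding was measured.

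**Figure D2:**
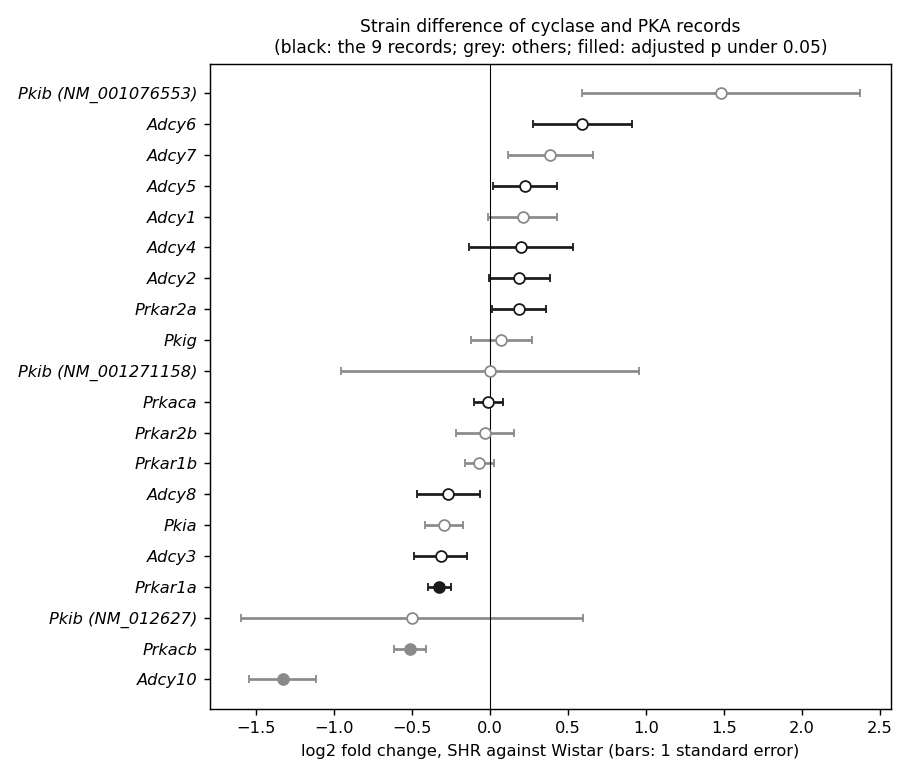
Log2 fold change of SHR against Wistar (horizontal axis, with bars of 1 standard error) for the 9 records (black) and for other cyclase, PKA subunit and PKA inhibitor records (grey). Filled points passed the adjusted p threshold; these are Prkar1a at -0.33, Prkacb at -0.51 and Adcy10 at -1.33.

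Among the 6 membrane cyclases no record passed edgeR's quasi-likelihood test, DESeq2 or limma, and none had an unadjusted p under 0.05 in edgeR. Adcy2 encodes a cyclase that G protein beta-gamma subunits stimulate when the stimulatory alpha subunit is also active. Its normalised counts were 991, 883, 665 and 776 in Wistar and 627, 1178, 933 and 1041 in SHR. SHR replicate 1 had the lowest value of all 8 rats, whereas 2 of the other SHR rats exceeded every Wistar rat. The log2 fold change was 0.19 with a standard error of 0.20 (edgeR's quasi-likelihood test, Benjamini-Hochberg adjusted p = 0.661).

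Adcy4 encodes another cyclase of the beta-gamma-stimulated class. It had 86.5, 85.2, 115 and 110 normalised counts in Wistar and 119, 57.1, 190 and 87.4 in SHR. The SHR rats spanned both extremes, with a coefficient of variation of 50.3% against 15.6% in Wistar, where counting alone gives 9.36% and 9.88%. Its log2 fold change was 0.20 with a standard error of 0.34 (edgeR's quasi-likelihood test, Benjamini-Hochberg adjusted p = 0.804), and without SHR replicate 3 it was -0.17.

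Calcium and calmodulin stimulate the cyclases encoded by Adcy3 and Adcy8. Normalised counts of Adcy3, the cyclase best known from olfactory cilia, were 717, 518, 807 and 649 in Wistar and 441, 496, 661 and 564 in SHR. The 2 lowest rats were SHR and the 2 highest were Wistar, with overlap between them. The log2 fold change was -0.31 with a standard error of 0.17 (edgeR's quasi-likelihood test, Benjamini-Hochberg adjusted p = 0.382). Adcy8, known for its high calcium sensitivity in neurons, had 96.1, 93.7, 101 and 76.9 counts in Wistar and 85.0, 64.9, 72.4 and 82.7 in SHR. In Adcy8 the 3 highest values were Wistar, and Wistar replicate 4 fell among the SHR rats. Its log2 fold change was -0.27 with a standard error of 0.20 (edgeR's quasi-likelihood test, Benjamini-Hochberg adjusted p = 0.530).

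Adcy5 and Adcy6 encode the cyclases that calcium and inhibitory G proteins restrain, the main forms in heart and, for Adcy5, striatum. For Adcy5 the counts were 200, 136, 139 and 122 in Wistar and 148, 189, 158 and 202 in SHR. Only Wistar replicate 1 reached the SHR range, and the other 3 Wistar rats lay below it. The log2 fold change was 0.23 with a standard error of 0.21 (edgeR's quasi-likelihood test, Benjamini-Hochberg adjusted p = 0.611). The Adcy6 record had 51.9, 75.6, 86.0 and 71.2 counts in Wistar and 110, 51.9, 152 and 114 in SHR. In 3 SHR rats the count exceeded every Wistar rat, while SHR replicate 2 was as low as the lowest Wistar rat. Its estimate was the highest of the 9, a log2 fold change of 0.59 with a standard error of 0.32 (edgeR's quasi-likelihood test, Benjamini-Hochberg adjusted p = 0.380). Adcy6 has a second RefSeq record in the files, and Salmon divides shared reads between them, so that the count of the record was not a whole number in any of the 8 rats and is uncertain. With both records summed, the log2 fold change of Adcy6 was 0.30 (edgeR's quasi-likelihood test, Benjamini-Hochberg adjusted p = 0.445).

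The levels of the 9 records spanned a wide range, and PKA subunits stood above the cyclases except for Prkar2a. Mean TPM over the 8 rats was 566 for Prkar1a, with a range of 461 to 688, a level above 97.7% of the tested records. Prkaca followed at 103 TPM (87.3 to 112). Adcy2 was the cyclase with the highest level among those measured, at 8.61 TPM (5.87 to 10.6), which exceeded 55.0% of the tested records. No quantified record was named Adcy9, so that cyclase is missing from the ranking and from the shares. Prkar2a at 5.28 TPM and Adcy3 at 4.74 came next, then Adcy5 at 1.33, Adcy4 at 1.09, Adcy8 at 0.712 and the Adcy6 record at 0.522. In this order each record was compared with the next by an exact two-sided permutation test of the log2 TPM difference within rats, adjusted over the 8 neighbouring pairs. For 5 pairs the difference had the same sign in all 8 rats, with an exact p of 0.0078, the smallest that 8 rats allow, and an adjusted p of 0.0125. Prkar2a exceeded Adcy3 in 6 of 8 rats (exact permutation test, adjusted p = 0.25), Adcy5 exceeded Adcy4 in 5 of 8 (adjusted p = 0.205) and Adcy8 exceeded the Adcy6 record in 7 of 8 (adjusted p = 0.0521), and the levels of these neighbours did not differ beyond their spread. With its 2 records summed, Adcy6 had a mean of 1.66 TPM and stood above Adcy5 in 6 of 8 rats.

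**Figure D3:**
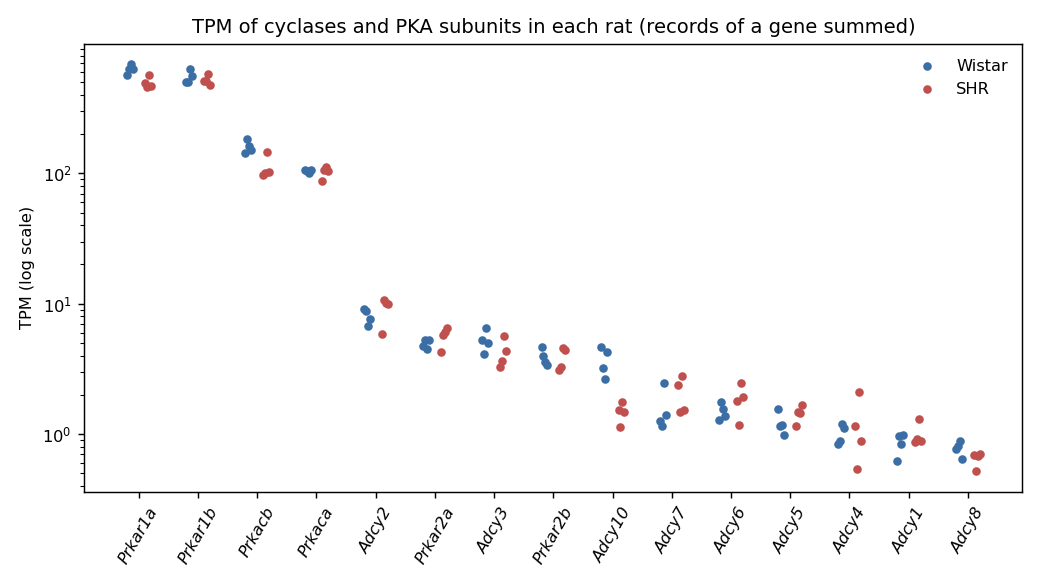
TPM (vertical log axis) of the measured adenylyl cyclases and PKA subunits in each rat, in order of mean level, with the records of a gene summed. Points are rats, blue for Wistar and red for SHR; Prkar1a and Prkar1b lie between 461 and 688 TPM and the cyclases below 11 TPM.

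Compared within the family, Adcy2 held 36.8% ± 6.80 (SD, n = 8) of the summed TPM of the measured cyclases and Adcy3 20.1% ± 3.27 (SD, n = 8). By strain, the share of Adcy2 was 35.9%, 38.5%, 28.2% and 32.5% in Wistar and 31.4%, 49.5%, 35.8% and 42.6% in SHR. Summed cyclase TPM overlapped between strains, with Wistar at 23.9 ± 1.06 (SD, n = 4) and SHR at 23.0 ± 4.03 (SD, n = 4). The beta-gamma-stimulated cyclases (Adcy2, Adcy4 and Adcy7) together held 44.1%, 47.4%, 43.3% and 43.2% in Wistar and 50.3%, 58.9%, 53.0% and 52.9% in SHR. Those shares did not overlap between strains, while the summed TPM of the same 3 cyclases did, from 10.1 to 11.2 in Wistar and from 9.41 to 14.99 in SHR. The share of the soluble cyclase Adcy10, at 15.4% ± 3.48 (SD, n = 4) for Wistar and 6.48% ± 1.17 (SD, n = 4) for SHR, enters the same total, so the shares of the others move with it. Calcium-stimulated cyclases (Adcy1, Adcy3 and Adcy8) held 25.8% to 34.3% in Wistar and 23.5% to 27.1% in SHR. Shares and ratios are given as descriptions with no test.

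PKA subunit transcripts were dominated by the type I regulatory pair. Prkar1a and the neuronal form Prkar1b together stood at 86.4 to 165 times the summed TPM of the type II subunits Prkar2a and Prkar2b. The ratio of Prkar1a to Prkar1b was 1.14, 1.26, 1.08 and 1.13 in Wistar and 0.967, 0.897, 0.987 and 0.988 in SHR. Prkar1a was thus the more abundant of the pair in every Wistar rat and the less abundant in every SHR rat. Its share of all regulatory subunit TPM averaged 53.1% ± 1.54 (SD, n = 4) for Wistar and 48.5% ± 1.10 (SD, n = 4) for SHR. The ratio of Prkaca to Prkacb, the catalytic pair, was 0.741, 0.569, 0.622 and 0.700 in Wistar and 0.897, 1.06, 0.773 and 1.02 in SHR. These catalytic ratios did not overlap between strains either. It was the Prkacb side that passed the test on counts, although the TPM of Prkacb itself overlapped between strains. Regulatory over catalytic transcripts as a whole gave a ratio of 4.53 ± 0.457 (SD, n = 4) for Wistar and 4.84 ± 0.448 (SD, n = 4) for SHR, with overlapping rats.

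**Figure D4:**
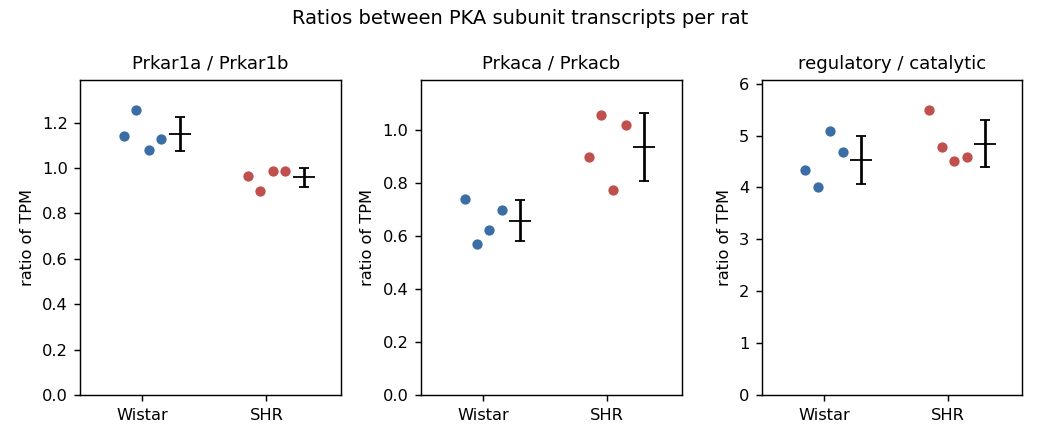
Ratios of TPM (vertical axes, from 0) between PKA subunit transcripts in each rat, for Prkar1a over Prkar1b, Prkaca over Prkacb, and all regulatory over all catalytic subunits. Points are rats and black marks the mean and SD of 4; the first ratio is 1.08 to 1.26 in Wistar and 0.897 to 0.988 in SHR, the second 0.569 to 0.741 and 0.773 to 1.06, and the last overlaps.

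Within strains, some of the records rose and fell together and others did so in opposition. After the mean of each strain was removed from log2 CPM, the counts scaled to library size,, Pearson's r over the 8 rats was positive for 21 of the 36 pairs of records and negative for 15. It was 0.94 between Adcy2 and Prkaca, 0.87 between Adcy4 and Adcy6, 0.86 between Adcy2 and Prkar2a and 0.83 between Prkaca and Prkar2a. For Prkar1a, r was -0.80 to Prkar2a, -0.75 to Adcy2 and -0.71 to Prkaca, but 0.62 to Adcy4 and 0.46 to Adcy6. Prkaca had negative values of r to Adcy6, at -0.69, and to Adcy4, at -0.60. Of all tested records, the 3 most like Adcy2 by this measure were Fzd3, a Wnt receptor (r = 0.99), NM_017204, which had no symbol in the reference table (r = 0.99), and Larp4b, an RNA-binding protein (r = 0.98). The 3 most like Prkar1a were Tab1, an activator of the kinase TAK1 (r = 0.99), Slc35c1, a GDP-fucose transporter (r = 0.98), and Mettl13, a methyltransferase (r = 0.98). These correlations share libraries, depth, scaling and cell composition, rest on 8 rats, and were the highest of many, so they serve only as a description.

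Beyond the 9 records, 94 genes of cyclic AMP signalling in 9 lists were examined, of which 79 had tested records. Of their 101 tested records 5 passed edgeR's quasi-likelihood test, 1 higher and 4 lower in SHR, against 1.16% and 1.69% of all tested records. At an unadjusted p under 0.05 there were 20, a count with no share of all tested records to set beside it. The median log2 fold change of the 101 records was 0.01, as for all tested records. DESeq2 called 8 of the 107 records to which it gave an adjusted p without a transcript length offset (7.48%, against 5.23% of all) and 9 of 101 with it (8.91%, against 6.27% of all). The plot of these lists shows changes of both signs in most of them.

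**Figure D5:**
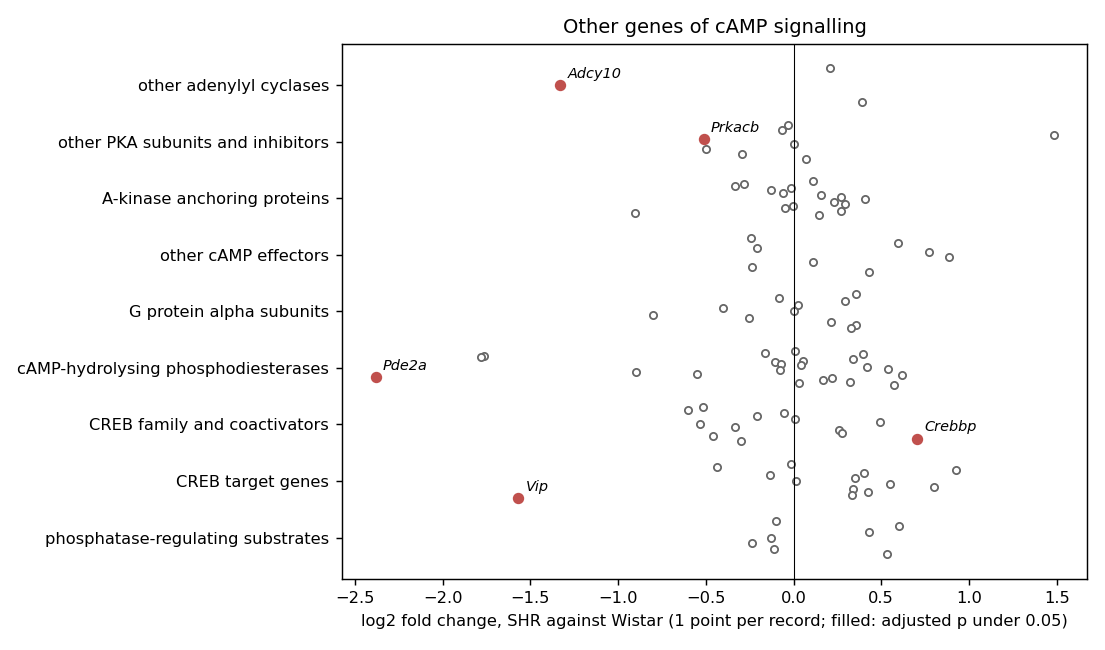
Log2 fold change of SHR against Wistar (horizontal axis) for the 101 tested records of 9 lists of cyclic AMP signalling genes (rows), with 1 point per record. Filled points passed the adjusted p threshold; Crebbp is to the right of 0 at 0.70, and Prkacb, Adcy10, Vip and Pde2a are to the left.

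Of the other cyclases, 1 of 3 tested records passed. Adcy10, the soluble cyclase that bicarbonate and calcium activate and G proteins do not, had 645, 408, 334 and 551 normalised counts in Wistar and 206, 161, 207 and 196 in SHR. The highest SHR rat was well below the lowest Wistar rat. Adcy10 had a log2 fold change of -1.33 with a standard error of 0.21 (edgeR's quasi-likelihood test, Benjamini-Hochberg adjusted p = 0.0084), and Adcy10 passed under all 23 alternatives run. Among 8 tested records of other PKA subunits and inhibitors 1 passed, the beta catalytic subunit Prkacb. Its counts were 3736, 4346, 3814 and 3676 in Wistar and 2479, 2650, 3195 and 2590 in SHR, without overlap. For Prkacb this gave a log2 fold change of -0.51 with a standard error of 0.10 (edgeR's quasi-likelihood test, Benjamini-Hochberg adjusted p = 0.0293). On the TPM scale the strains overlapped for Prkacb, with 143 in the lowest Wistar rat and 145 in the highest SHR rat. Leaving out each rat in turn moved the adjusted p of Prkacb in edgeR to between 0.0133 and 0.108, and it was past the threshold in 2 of the 8 such fits. With the replicate number as a block the adjusted p was 0.139. Prkacb passed under 11 of the 23 alternatives, and not with limma, upper quartile scaling or library totals.

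Upstream and downstream of PKA the calls were few. Of the 22 tested phosphodiesterase records, 1 of Pde2a, which encodes a cyclic GMP-stimulated phosphodiesterase, passed, with a log2 fold change of -2.38 and a standard error of 0.51 (edgeR's quasi-likelihood test, Benjamini-Hochberg adjusted p = 0.0353). It is 1 of 3 Pde2a records that divide reads, and with them summed the log2 fold change was -0.51 (adjusted p = 0.0806). Without single rats the Pde2a record passed in 2 of 8 fits. In this list 6 records had an unadjusted p under 0.05 in edgeR, while DESeq2 called 2 and limma 1 or 2 by pseudocount. In the CREB list 1 of 13 records passed, Crebbp, the coactivator that binds CREB after PKA phosphorylates it. Counts of Crebbp were 2090, 2154, 2209 and 1999 in Wistar and 3020, 3406, 3606 and 3721 in SHR, a log2 fold change of 0.70 with a standard error of 0.092 (edgeR's quasi-likelihood test, Benjamini-Hochberg adjusted p = 0.0026), and it passed under all 23 alternatives. Of 13 tested records of CREB target genes 1 passed, the neuropeptide gene Vip, at a log2 fold change of -1.57 with a standard error of 0.28 (edgeR's quasi-likelihood test, Benjamini-Hochberg adjusted p = 0.0143). Without SHR replicate 2 the adjusted p of Vip was 0.0521, and with the replicate number as a block it was 0.0524. The median log2 fold change of the CREB target records was 0.34 and that of the CREB family and coactivators was -0.21.

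Anchoring proteins, G proteins and other effectors gave no call in edgeR. Of 16 records of A-kinase anchoring proteins, which tether PKA, none passed edgeR, DESeq2 or limma and 2 had an unadjusted p under 0.05. Smallest in p was Akap5, the anchor of cyclases and PKA at the synaptic membrane, with a log2 fold change of -0.90 and a standard error of 0.31 (edgeR's quasi-likelihood test, Benjamini-Hochberg adjusted p = 0.185). Among 11 records of stimulatory and inhibitory G protein alpha subunits 3 had an unadjusted p under 0.05, with DESeq2 calling 1 without and 2 with the length offset and limma 0. There the smallest p belonged to Gnai3, an inhibitory subunit, at -0.40 with a standard error of 0.099 (edgeR's quasi-likelihood test, Benjamini-Hochberg adjusted p = 0.0677). Gnai2, another inhibitory subunit, had the opposite sign, at 0.33 with a standard error of 0.087 (edgeR's quasi-likelihood test, Benjamini-Hochberg adjusted p = 0.0869). Gnao1, also under that unadjusted p, had the sign of Gnai3, at -0.25 with a standard error of 0.090 (edgeR's quasi-likelihood test, Benjamini-Hochberg adjusted p = 0.199). Of 8 records of other effectors 2 had an unadjusted p under 0.05, DESeq2 called 1 and limma 0. No record of the 7 for PKA substrates that regulate phosphatases had an unadjusted p under 0.05 or was called by DESeq2 or limma, and Arpp21 was lowest in p with a log2 fold change of 0.60 and a standard error of 0.30 (edgeR's quasi-likelihood test, Benjamini-Hochberg adjusted p = 0.351).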

How the data were processed

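Right stellate ganglia of 4 Wistar rats and 4 SHR were sequenced as 1 library per rat. Sources differ on the kits: the labels name a stranded mRNA library and a micro extraction kit, the methods an RNeasy Mini kit and SMARTer amplification. The authors quantified read pairs against rat RefSeq transcripts with Salmon 0.8.2, with GC and positional bias corrections. Each file deposited by the authors gives an estimated count and a TPM per record, with no normalisation of counts between samples, and the length and effective length. Records were named by accession from a RefSeq table of GRCr8, which paired 17360 of 18314 with a symbol. The submitters' processing notes also name FastQC 0.11.7.

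Counts were rounded and fitted with edgeR 4.0.16 (TMM, filterByExpr, glmQLFit and glmQLFTest with package defaults) in R 4.3.3. This was tested on simulated data. Standard errors were obtained as the size of the log2 fold change over the root of the F statistic. The TPM of genes with several records were summed for shares. The 9 records, the pathway lists and the marker lists were chosen with earlier results of these data known. Named genes are the 9 records, each pathway gene past the threshold or, in lists without one, the gene with the smallest p, and the 3 records most correlated with the highest cyclase and PKA subunit. Gnai2 and Gnao1 were added to set beside Gnai3. Alternatives were DESeq2 1.42.0, limma 3.58.1 on log2(TPM + 0.1, 0.5 or 1), other scalings and filters, records summed to genes, a replicate block and leaving out each rat. Promoter windows came from RefSeq (GRCr8), and no coordinates of the authors' own build were used. Protein sequences were not used here. The values of 1 gene that the naming rule picks are not reported here.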

Additional observations from a re-analysis of the deposited data

Results flagged for a closer look

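Gnai3, an inhibitory G protein alpha subunit and not one of the 9 records, had a normalised count of 1862 in SHR replicate 3, far from the other SHR rats at 1697 to 1713 relative to their spread. It was the 1 flag among 36 groups of 4 rats that Dixon's criterion examined, where chance gives about 1.8. The SHR value remained below the lowest Wistar rat, at 2077.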

How the results depend on the processing

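Values came from 23 alternatives, those for the order of levels and the shares being added after the data were seen. Records past the threshold, 389 in the main fit, numbered 782 with DESeq2, 852 with DESeq2 and a length offset, 132 with the replicate block, 1068 with both replicates 1 left out, and 237 to 454 without single rats. Of the calls 40.6% were higher in SHR, but 50.9% with upper quartile scaling and 28.4% with both replicates 1 left out. The pathway lists gave 8, 9, 3 and 10 calls with DESeq2, DESeq2 with offset, the block and both replicates 1 left out, and 2 to 5 without single rats. Of the 9 cyclase and PKA records 0 passed with limma (all 3 pseudocounts), RLE, upper quartile or library total scaling, no low-count filter, records summed to genes, the replicate block, or without any single rat (0 to 0). Prkar1a kept its direction in all 23. Where its call was lost its log2 fold change was -0.34 with each limma pseudocount, -0.32 with RLE, -0.26 with upper quartile scaling, -0.30 with library totals, -0.33 without the filter, -0.32 with summed records, -0.33 with the block, and -0.35 to -0.29 without single rats. It passed in the other 6, both DESeq2 fits among them. Prkaca changed sign at 0.052 (upper quartile), 0.018 (totals), 0.075 (both replicates 1 left out) and in 4 single-rat fits, which spanned -0.057 to 0.048, and Adcy4 without SHR replicate 3, at -0.17 in a range up to 0.42. The causes were not tested.

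Deviations of same-numbered rats correlated at -0.29, -0.12, -0.16 and -0.04. Rats with different numbers were not compared in this way, so these values cannot decide whether replicate numbers paired the rats. The block result rests on a shared number alone. For Adcy4, Adcy5, Adcy6, Adcy8 and Prkar2a counting alone gave 7.54% to 11.7% of variation within a strain, against an observed 8.19% to 50.3%.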
